A study of Mus musculus with 36 samples.

Results

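Kazald1, Tesc, Ptgds and Ppargc1a are 4 of the 19938 genes measured in sorted cells of the fetal mouse gonad. They were chosen by symbol, from the values themselves, for high levels in XY supporting cells, and 1 probe set per gene (the one with the highest mean) stands for each. The choice used the XY supporting cells, so the levels there and the differences between XY and XX supporting cells are given as a description, with no test. Tests were run on germ cells and XX supporting cells, whose levels the rule of choice did not name. Earlier results of these data were known when the genes were chosen, so these tests are not fully independent of the choice.

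Supporting cells surround the germ cells and give rise to Sertoli cells in a testis or granulosa cells in an ovary. In XY gonads a short pulse of Sry switches on Sox9, and Sox9 with Fgf9 drives the cells towards the Sertoli fate, in which they secrete Amh and enclose the germ cells in cords. Kazald1 encodes a secreted protein with an insulin-like growth factor (IGF) binding domain and a Kazal-type protease inhibitor domain. Tesc encodes tescalcin, a calcium-binding EF-hand protein that is related to the calcineurin B subunit and was first described in the embryonic testis. Ptgds encodes lipocalin-type prostaglandin D synthase, which makes prostaglandin D2, a signal known in the fetal testis to help bring SOX9 into the nucleus. Ppargc1a encodes PGC-1alpha, a transcriptional coactivator of mitochondrial and oxidative genes that works through nuclear receptors.

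RNA was measured on 36 arrays, 3 for each of 12 groups: XX or XY, germ or supporting cells, 11.5, 12.5 or 13.5 days post coitum (dpc). Germ cells of both sexes carried an Oct4 reporter, in progeny of C57BL/6NJ on a mixed background. XX supporting cells at every stage, and XY supporting cells at 11.5 dpc, carried Tg(Sry-EGFP)92Ei in progeny of CD-1. XY supporting cells at 12.5 and 13.5 dpc carried Tg(Sox9-cre/ERT2)1Msan/J in progeny of C57BL/6, with Sox9 as the reported gene. XY and XX supporting cells are therefore of the same line only at 11.5 dpc, and at 12.5 and 13.5 dpc karyotype cannot be told apart from line and strain. The same holds for the step of XY supporting cells from 11.5 to 12.5 dpc, and for germ against supporting cells. Gonads of each sex were pooled before sorting, and nothing in the labels ties the 3 arrays of a group to separate pools. The p-values therefore measure the spread between arrays alone, which may be technical.

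Values are log2 expression made with RMA (background correction, normalisation between arrays and a summary over the probes that make up a probe set), and a difference of 1 is a doubling. In bulk samples fewer cells of a type and less RNA per cell cannot be told apart. Array 3 of XX germ cells at 12.5 dpc was left out, as set by the rule that chose the genes. That group therefore has 2 arrays, and 35 arrays entered the model. The median over 11 germ cell markers was 5.89 in the left-out array, against 9.08 to 10.51 in the other 17 germ cell arrays. The labels of karyotype fitted the Y-linked gene Eif2s3y, which lay between 8.82 and 10.25 in XY arrays and between 4.27 and 5.72 in XX arrays. Sox9 lay between 10.96 and 11.84 in XY supporting arrays and at 9.02 or lower in XX ones. At 12.5 and 13.5 dpc Sox9 was the reported gene of the XY supporting cells, so its level there is no check of the labels. At 11.5 dpc it lay between 11.60 and 11.75 in XY and between 8.20 and 8.70 in XX supporting arrays. All 16 Sertoli markers, Sox9 among them, were higher in XY than in XX supporting cells at 12.5 and at 13.5 dpc (limma, adjusted p under 0.05 over all genes). At these stages 13.4% and 12.2% of all genes differed in either direction. With Sox9 as the reported gene, these 2 counts are no separate check of the labels. At 11.5 dpc 7 of 16 were higher, where 3.33% of all genes differed. Of 10 pregranulosa markers 8 were lower in XY supporting cells at 13.5 dpc, but Foxl2, the defining one, lay between 6.04 and 6.57 in XX and between 6.02 and 6.82 in XY supporting arrays.

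The promoters of the 4 genes are shown because their courses in XY supporting cells differ. Ppargc1a was highest at 11.5 dpc. Tesc and Ptgds were already above XX supporting cells at that stage and rose further, and Kazald1 rose only after it. Sequences are the 250 bases before the RefSeq start sites (assembly GRCm38.p6), searched on both strands for the SOX cores ACAAT and ACAAAG, the nuclear receptor core AAGGTCA, the GATA cores AGATAA and TGATAA, the CRE core TGACG (part of the cAMP response element) and the TATA box TATAAA. Capitals mark the matches. The Tesc promoter (chr5:118027493-118027742, plus strand, just before the gene at chr5:118027743-118061878) held none of these 7 motifs and had a GC content of 73.2%, against a median of 52.4% over 32851 promoters.
Tesc promoter: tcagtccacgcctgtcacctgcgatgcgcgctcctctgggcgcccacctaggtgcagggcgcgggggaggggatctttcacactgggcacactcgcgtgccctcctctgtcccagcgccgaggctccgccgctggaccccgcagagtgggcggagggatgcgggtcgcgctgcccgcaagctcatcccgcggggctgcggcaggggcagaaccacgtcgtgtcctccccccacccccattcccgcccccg
The Ppargc1a promoter (chr5:51567726-51567975, minus strand, inside the gene record at chr5:51454249-52115853) had a GC content of 48.0% and held a SOX core 91 to 87 bases and a CRE core 49 to 45 bases before the start, each on the other strand, where they read as ATTGT and CGTCA.
Ppargc1a promoter: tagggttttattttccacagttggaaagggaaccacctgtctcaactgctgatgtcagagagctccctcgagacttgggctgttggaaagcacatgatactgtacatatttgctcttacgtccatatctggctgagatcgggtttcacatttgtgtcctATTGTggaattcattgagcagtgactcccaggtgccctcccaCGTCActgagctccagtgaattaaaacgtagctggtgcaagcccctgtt
Kazald1 (chr19:45074962-45079289) has 2 start sites in RefSeq. The window of start site 1 held a CRE core 56 to 52 bases before the start (30 bases shown, chr19:45075173-45075202), and that of start site 2 a SOX core on the other strand 156 to 152 bases before the start (chr19:45075919-45075948).
Kazald1 start site 1: agtcagaacctcTGACGccttctgggcggg
Kazald1 start site 2: ctctgtacactcATTGTgactttgggctag
The window of Ptgds (gene at chr2:25466709-25470110, minus strand) held none of the 7 motifs and had a GC content of 58.4%. No matches overlapped each other. Over all promoters ACAAT was present in 27.7%, ACAAAG in 16.5%, AAGGTCA in 4.08%, AGATAA in 9.99%, TGATAA in 7.94%, TGACG in 17.8% and TATAAA in 12.4%, so the matches in Kazald1 and Ppargc1a are of the 2 commonest motifs. A match describes letters in a window and not a bound site.

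The levels of the 4 genes set XY supporting cells apart from the other cells from different days onward. Tesc, Ptgds and Ppargc1a were higher in each of the 9 XY supporting arrays than in any of the 26 others, and Kazald1 in 6 of 9, those of 12.5 and 13.5 dpc. The genes were chosen for high levels in these cells, so such a separation follows from the choice. How many of all genes separate in the same way was not counted. From 11.5 to 13.5 dpc the XY supporting means of Kazald1, Tesc and Ptgds went up by 4.88, 2.67 and 2.25, while that of Ppargc1a dropped by 1.37. Among all 19938 genes ordered by this change, Kazald1 stood first from the top, at rank 1, and Ppargc1a near the bottom, at rank 19804.

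**Figure D1:**
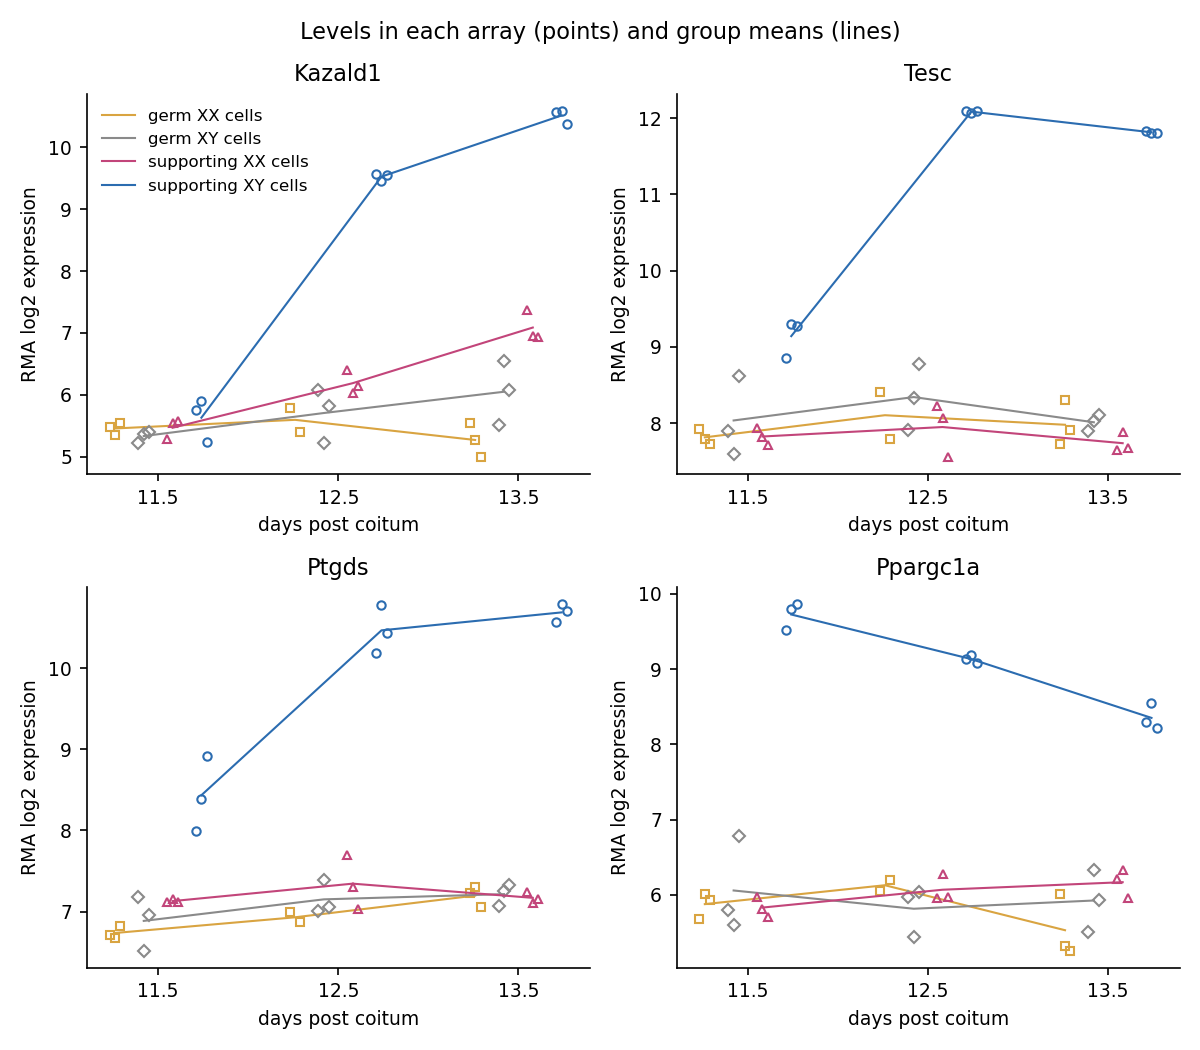
RMA log2 expression (vertical axis) of the 4 genes by stage (days post coitum, horizontal axis), with each array as a point and group means joined by lines, for XX and XY germ and supporting cells. XY supporting cells lie above all other arrays in every panel except for Kazald1 at 11.5 dpc, and Ppargc1a goes down where the others go up; XX germ cells at 12.5 dpc have 2 arrays.

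Kazald1 was low in both karyotypes at first and then became one of the most XY-biased genes. At 11.5 dpc the 3 XY supporting arrays read 5.75, 5.90 and 5.24 and the XX ones 5.29, 5.54 and 5.58, so the groups overlapped. By 12.5 dpc the XY arrays read 9.57, 9.46 and 9.55 against 6.40, 6.02 and 6.14 in XX. At 13.5 dpc they read 10.57, 10.59 and 10.38 against 7.38, 6.95 and 6.93. The groups were far apart at both later stages. XY minus XX supporting cells was 0.16 (SE 0.22) at 11.5 dpc, 3.34 (SE 0.22, 10.1-fold) at 12.5 dpc and 3.43 (SE 0.22, 10.8-fold) at 13.5 dpc. Among all genes the difference ranked 2344, 36 and 29 from the highest on the successive days.

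Tesc had a small XY excess at 11.5 dpc and reached its plateau a day later. The XY supporting arrays at 11.5 dpc read 8.85, 9.30 and 9.27, and the XX ones 7.94, 7.82 and 7.71. At 12.5 dpc the XY arrays read 12.10, 12.07 and 12.10 and the XX ones 8.22, 8.07 and 7.55. At 13.5 dpc the XY arrays read 11.83, 11.81 and 11.81 and the XX ones 7.65, 7.88 and 7.68. No XY array overlapped an XX array at any stage. The differences were 1.32 (SE 0.22, 2.49-fold), 4.14 (SE 0.22, 17.6-fold) and 4.08 (SE 0.22, 16.9-fold), with ranks of 88, 12 and 8. Between 12.5 and 13.5 dpc the XY mean dropped by 0.27, without overlap of the arrays, but with the row sets of each array aligned (a correction described with the processing) it dropped by 0.09.

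Ptgds was higher in XY supporting cells at every stage, with its smallest XY excess at 11.5 dpc. In XY supporting cells its arrays read 7.99, 8.39 and 8.92 at 11.5 dpc, a wide spread, against 7.12, 7.15 and 7.12 in XX. They read 10.19, 10.78 and 10.43 at 12.5 dpc, against 7.70, 7.30 and 7.04. At 13.5 dpc the readings were 10.57, 10.79 and 10.70 against 7.25, 7.11 and 7.15. XY and XX arrays did not overlap at any stage, whereas the XY arrays of 12.5 and 13.5 dpc overlapped each other. XY minus XX was 1.30 (SE 0.20, 2.47-fold), 3.12 (SE 0.20, 8.69-fold) and 3.52 (SE 0.20, 11.4-fold), with ranks of 92, 55 and 24. Without XY array 3, the highest at 11.5 dpc, the first of these differences was 1.06.

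Ppargc1a behaved in the opposite way over time. Its XY supporting arrays read 9.52, 9.79 and 9.86 at 11.5 dpc, when the XX arrays read 5.97, 5.81 and 5.71. They read 9.14, 9.18 and 9.08 at 12.5 dpc, against 5.96, 6.27 and 5.97 in XX, and 8.30, 8.54 and 8.21 at 13.5 dpc, against 6.21, 6.33 and 5.96. On the probe set that stands for the gene, no arrays overlapped between karyotypes, and the XY arrays of successive stages did not overlap either. XY minus XX was 3.90 (SE 0.23, 14.9-fold) at 11.5 dpc, where both karyotypes are of the same line, and ranked 2 among all genes. It was 3.07 (SE 0.23, 8.38-fold) at 12.5 dpc and 2.18 (SE 0.23, 4.55-fold) at 13.5 dpc, with ranks of 63 and 151. At 13.5 dpc XY supporting arrays also held more of all 4 steroidogenic markers measured (array medians 6.98 to 7.59, against 5.44 to 5.56 in XX), and their part in the 13.5 dpc values of the 4 genes was not tested. The erythroid marker Alas2 lay between 7.30 and 8.02 in XY supporting arrays at 12.5 and 13.5 dpc and at 7.40 or lower in XX supporting ones, and its part was not tested either. None of the 8 endothelial, 8 macrophage or 4 mesonephric markers passed the test between XY and XX supporting cells at any stage. Of 9 stromal markers Pdgfra and Ptch1 were higher in XY at 11.5 dpc, by 1.80 (SE 0.25) and 0.92 (SE 0.22), and at 12.5 dpc, by 0.80 and 1.67, and Ptch1 at 13.5 dpc by 0.97. Nr2f2, another of them, was lower at 11.5 and 12.5 dpc, with -1.13 (SE 0.27) and -1.54 (SE 0.27). Of the steroidogenic markers Cyp11a1 was lower at 11.5 dpc, with -0.97 (SE 0.23, limma adjusted p = 0.00496), and Star higher at 12.5 dpc by 0.92 (SE 0.21). The part of these markers in the values of the 4 genes was not tested.

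**Figure D2:**
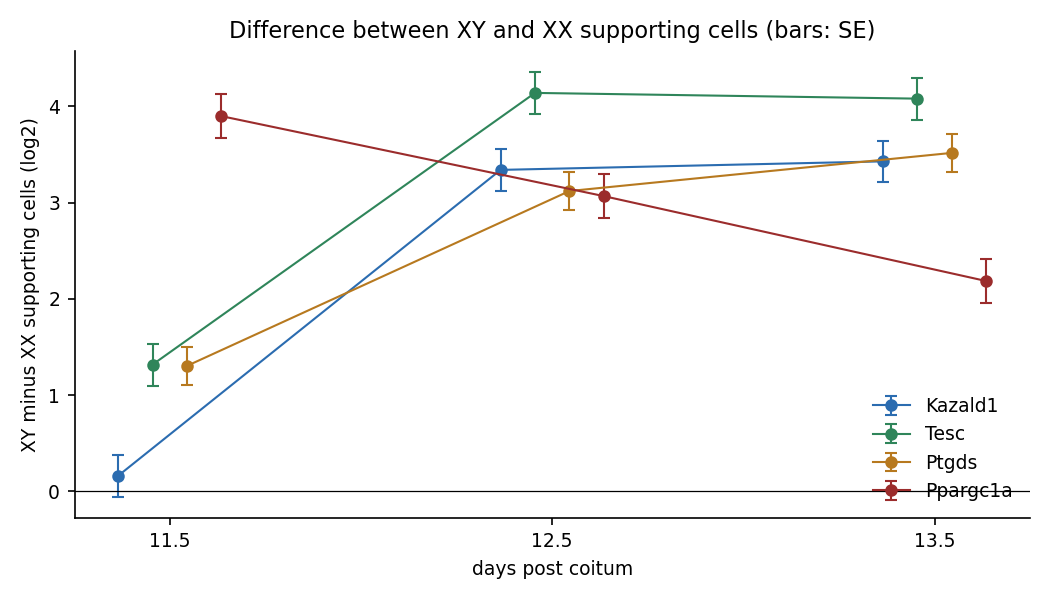
XY minus XX difference in supporting cells on the log2 scale (vertical axis) by stage (days post coitum, horizontal axis) for the 4 genes, with standard errors of the fitted contrast as bars. Ppargc1a starts at 3.90 and goes down to 2.18, Kazald1 starts at 0.16 and reaches 3.43, and Tesc and Ptgds start at 1.32 and 1.30.

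A second probe set for Ppargc1a, dimmer than the first, also read higher in XY than in XX supporting cells at 11.5 and 12.5 dpc, without overlap. Its XY supporting arrays read 7.15, 6.98 and 5.73 at 11.5 dpc, 6.83, 6.54 and 6.69 at 12.5 dpc, and 5.10, 4.87 and 5.16 at 13.5 dpc. Array 3 stood well below the other two at 11.5 dpc on this probe set, and not on the brighter one. XY minus XX was 1.91 at 11.5 dpc, 1.91 at 12.5 dpc and 0.43 at 13.5 dpc. At 13.5 dpc the karyotypes overlapped, with the lowest XY array at 4.87 and the highest XX array at 4.98. The XY mean did not fall from 11.5 to 12.5 dpc (6.62 and 6.69), and the XY arrays of these stages overlapped. On this probe set the XX supporting means were 4.61 to 4.77, below the median of every array (6.54 to 7.01), so sizes of a difference are not comparable between the probe sets. The XX supporting means on the brighter probe set (5.83 to 6.17) lay below these medians too. So did those of Kazald1 at 11.5 and 12.5 dpc (5.47 and 6.19), and the folds given for both genes at these stages rest on XX values near the floor.

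**Figure D3:**
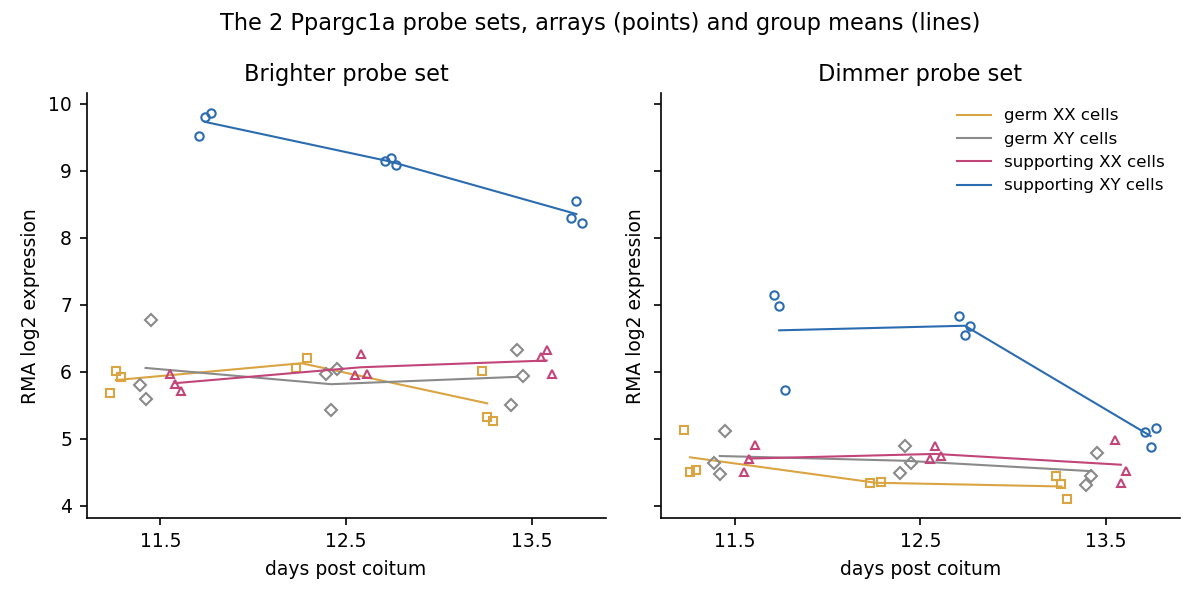
RMA log2 expression (vertical axis) of the 2 Ppargc1a probe sets by stage (days post coitum), with arrays as points and group means as lines, for the 4 kinds of cells. Both show XY supporting cells on top at 11.5 and 12.5 dpc, and XY minus XX at 13.5 dpc is 0.43 on the dimmer and 2.18 on the brighter one; neither levels nor sizes of a difference are comparable between the 2 probe sets.

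Ordered by group mean, the top 3 groups were the XY supporting cells of the 3 stages for Tesc, Ptgds and Ppargc1a. Below them the other groups lay close together, and the arrays of nearly all neighbours overlapped. Their means lay between 7.74 and 8.34 for Tesc, 6.74 and 7.35 for Ptgds, and 5.53 and 6.17 for Ppargc1a. For Tesc these means were above the median of every array (6.54 to 7.01). The order was different for Kazald1. Its mean was 10.51 ± 0.11 in XY supporting cells at 13.5 dpc, 9.53 ± 0.06 at 12.5 dpc, 7.09 ± 0.25 in XX supporting cells at 13.5 dpc and 6.19 ± 0.19 at 12.5 dpc (SD, n = 3 each), and the arrays of these 4 groups did not overlap. XY germ cells at 13.5 dpc came next at 6.05 ± 0.52 (SD, n = 3), overlapping XX supporting cells at 12.5 dpc, and from there on each group overlapped with the next.

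XX supporting cells, whose levels the rule of choice did not name, showed 1 of the 4 genes changing with time. Kazald1 rose from 5.47 ± 0.16 at 11.5 dpc to 6.19 ± 0.19 at 12.5 dpc and 7.09 ± 0.25 at 13.5 dpc (SD, n = 3 each). The arrays of successive stages did not overlap, and the steps were 0.72 and 0.90. From 11.5 to 13.5 dpc the rise was 1.62 (SE 0.22, 3.07-fold, limma adjusted p = 2.01e-07 over all genes), rank 75 among all genes, where 4.1% of genes passed this test. It kept this call in every alternative tried. All XX supporting arrays were of the same line. Over the same days the median of the 16 Sertoli markers in XX supporting arrays went from between 7.01 and 7.12 to between 6.78 and 7.08. Among them 1 marker was higher and 1 lower. Mro was higher by 1.64 (SE 0.22, limma adjusted p = 2.61e-07), and Dmrt1 was lower, with -1.14 (SE 0.21, adjusted p = 0.000142). Their part in the rise of Kazald1 was not tested. The median of 10 pregranulosa markers lay between 9.22 and 9.41 at 11.5 dpc and between 9.13 and 9.52 at 13.5 dpc, where Irx3 and Axin2 had risen by 1.08 and 0.93 and Kctd14 had fallen by 0.96 (limma, adjusted p under 0.05). Markers of other cells changed as well from 11.5 to 13.5 dpc in these arrays. The steroidogenic Cyp11a1 fell by 2.41 (SE 0.23) while Hsd3b1 rose by 0.72 (SE 0.21), the stromal Nr2f2 and Pdgfra fell by 1.46 (SE 0.27) and 0.96 (SE 0.25), and the germ cell gene Dazl rose by 1.15 (SE 0.27). The part of these markers in the rise of Kazald1 was not tested.

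Tesc changed by -0.09 (SE 0.22, limma adjusted p = 1.0), Ptgds by 0.04 (SE 0.20, adjusted p = 1.0) and Ppargc1a by 0.34 (SE 0.23, adjusted p = 0.793) in XX supporting cells over these days, and none of the 3 passed the test. With the row sets aligned the change of Ppargc1a was 0.41, with a limma adjusted p of 0.0273. It is small beside the distance of the XX from the XY arrays.

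In germ cells Kazald1 alone of the 4 genes passed a test between karyotypes. Germ cell means of Kazald1 and Ppargc1a lay below the median of every array (6.54 to 7.01). Those of Ptgds lay about these medians, and those of Tesc (7.81 to 8.34) above them. At 11.5 dpc, where 0.0251% of genes passed, and at 12.5 dpc, where 1.8% passed, 0 of the 4 genes passed between karyotypes (limma, adjusted p under 0.05), with an unadjusted p under 0.05 for 0 of them; their differences lay between -0.31 and 0.24. At 13.5 dpc, where 9.21% of genes passed, Kazald1 read 5.51, 6.55 and 6.08 in XY and 5.54, 5.28 and 4.99 in XX germ cells. The lowest XY array lay below the highest XX array, so the groups overlapped on the deposited values. With the row sets aligned they did not, with the lowest XY array at 5.90 and the highest XX array at 5.66. The difference on the deposited values was 0.78 (SE 0.22, limma adjusted p = 0.0119). It rested on few arrays: without XY array 2 it was 0.53 (adjusted p = 0.205), and without XX array 3 it was 0.64 (adjusted p = 0.119). The median of the 16 Sertoli markers lay between 6.72 and 7.27 in the same XY arrays and between 6.46 and 6.89 in the XX arrays, with 3 of 16 higher in XY, and their part in the Kazald1 difference was not tested. Sox9 lay between 7.33 and 7.87 in those XY arrays and between 7.17 and 7.61 in the XX ones, and Amh between 5.87 and 6.47 against 5.78 and 6.34. The 3 Sertoli markers that were higher in XY germ arrays were Cst9 by 3.196 (SE 0.30, limma adjusted p = 1.72e-11), Etv5 by 1.45 (SE 0.25) and Hsd17b3 by 1.27 (SE 0.20), Etv5 with an adjusted p of 3.04e-05 and Hsd17b3 with one of 8.15e-06. The stromal marker Ptch1 was higher too, by 1.18 (SE 0.22, adjusted p = 0.00012), and its part was not tested.

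The other differences at 13.5 dpc were 0.03 for Tesc (SE 0.22), 0.02 for Ptgds (SE 0.20) and 0.40 for Ppargc1a (SE 0.23), with limma adjusted p-values of 0.962, 0.978 and 0.352. Over time Kazald1 went from 5.23, 5.37 and 5.40 at 11.5 dpc to the values above in XY germ cells, a rise of 0.72 (SE 0.22, limma adjusted p = 0.0286, where 7.1% of genes passed). Leaving out any 1 of 5 of the 6 arrays compared ended this call; the values then lay between 0.47 and 0.75 with adjusted p-values from 0.0564 to 0.326. In XX germ cells, where 15.3% of genes passed at an adjusted p under 0.05, 0 of the 4 genes did. Ptgds alone (0.46, SE 0.20) had an unadjusted p under 0.05, a limit for which the share of all genes is not given here. The change of the karyotype difference from 11.5 to 13.5 dpc was 0.90 for Kazald1 (SE 0.30, limma adjusted p = 0.1) and missed the threshold that 3.23% of genes met. The other 3 genes lay between -0.19 and 0.21 on this measure.

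Germ cells and supporting cells of XX gonads, which carry different reporters, differed in Kazald1 and Ppargc1a at the last stage. At 11.5 dpc, where 26.6% of genes passed, and at 12.5 dpc, where 24.6% passed, 0 of the 4 genes passed with limma, and 1 did at an unadjusted p under 0.05 (Kazald1 at 12.5 dpc). That difference was germ minus supporting -0.59 (SE 0.24, limma adjusted p = 0.0671), and with arrays centred, quantile normalised or row sets aligned it was -0.62, -0.65 and -0.84 with adjusted p-values of 0.0219, 0.0195 and 0.000103. At 13.5 dpc, where 26.4% of genes passed, Kazald1 was lower in germ cells by a difference of -1.82 (SE 0.22, limma adjusted p = 1e-09), and every germ array lay below every supporting array. Ppargc1a read 6.01, 5.32 and 5.26 in XX germ cells and 6.21, 6.33 and 5.96 in XX supporting cells, which overlapped. With the row sets aligned they did not, with germ arrays at 5.70 or lower and supporting arrays at 6.03 or higher. On the deposited values the difference for Ppargc1a was -0.64 (SE 0.23, limma adjusted p = 0.0288). On the mean of its 2 probe sets the difference was -0.48 (adjusted p = 0.0618), and with the left-out array returned the adjusted p was 0.059. Leaving out any 1 of 4 of the 6 arrays ended this call too, with values from -0.62 to -0.50 (adjusted p from 0.0778 to 0.163).

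**Figure D4:**
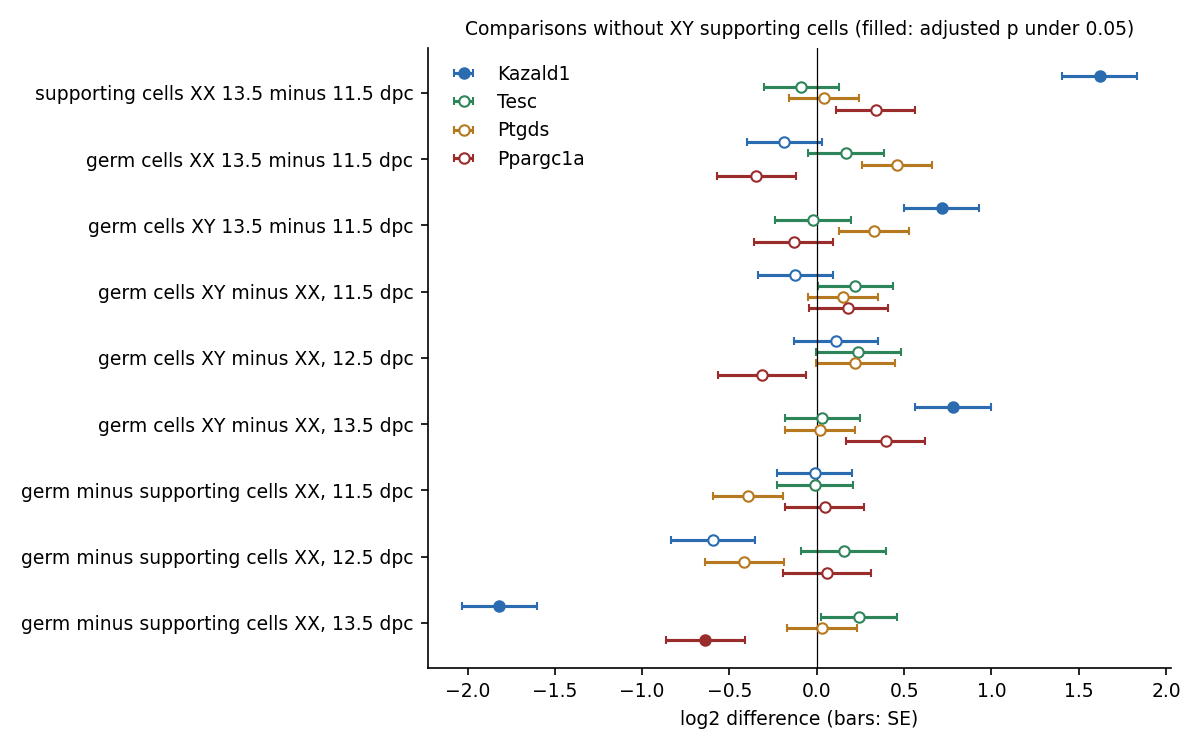
Log2 differences (horizontal axis) of the 4 genes with standard errors as bars, in the 9 comparisons of 2 groups that hold no XY supporting cells (vertical axis). Filled points have a limma adjusted p under 0.05: Kazald1 in XX supporting cells over time (1.62), in XY germ cells over time (0.72), between karyotypes in germ cells at 13.5 dpc (0.78) and between XX germ and supporting cells at 13.5 dpc (-1.82), and Ppargc1a in the last of these (-0.64).

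The rise of Kazald1 in XX supporting cells was larger than its change in XX germ cells. The 2 changes were 1.62 and -0.19, and the difference between them was 1.81 (SE 0.30, limma adjusted p = 2.57e-05), where 8.83% of genes passed; this contrast was added after the values were seen. The other 3 genes did not pass it, with values of -0.25 for Tesc, -0.42 for Ptgds and 0.68 for Ppargc1a (adjusted p 0.756, 0.509 and 0.227).

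Genes whose group means followed those of a member most closely over the 12 groups are given as a description. All such correlations share the same arrays and rest largely on the contrast of XY supporting cells with the rest. An r of at least 0.95 was reached by 11 genes for Kazald1, 64 for Tesc, 64 for Ptgds and 12 for Ppargc1a. Kazald1 was followed by Chp2 (r = 0.979), a calcineurin B homologue, by Defb19 (r = 0.979), a beta-defensin, and by Masp1 (r = 0.970), a serine protease of the lectin complement pathway. Tesc was followed by Islr2 (r = 0.996), Map3k21 (r = 0.993) and Gjb2 (r = 0.993), a gap junction connexin. Ptgds was followed by Pak3 (r = 0.989), a p21-activated kinase, by Tyro3 (r = 0.985), a receptor tyrosine kinase, and by Zc3h7b (r = 0.983). Ppargc1a was followed by Fgf9 (r = 0.990), the growth factor that maintains Sox9, by Ppp1r3c (r = 0.987), a glycogen-targeting subunit of protein phosphatase 1, and by BC006965 (r = 0.972).

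Fgf9 had XY supporting means of 10.39, 9.95 and 8.84 on the successive days against 6.74, 6.65 and 6.82 in XX, so it too was high first and lower later. Chp2 had XY means of 6.28, 8.47 and 9.45 against 6.07, 6.50 and 6.57, the late course of Kazald1. Among the members Tesc and Ptgds were closest (r = 0.984), Kazald1 followed with 0.903 and 0.917, and Ppargc1a correlated with Kazald1 at 0.602, with Tesc at 0.792 and with Ptgds at 0.820. Amh correlated with Tesc at 0.976 and with Ppargc1a at 0.665, and Sox9 with Ppargc1a at 0.971 and with Kazald1 at 0.693.

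The other genes of each member's pathway were counted from textbook lists that leave the members out. In supporting cells 3.33% of all genes differed between XY and XX at 11.5 dpc, 13.4% at 12.5 dpc and 12.2% at 13.5 dpc (limma, adjusted p under 0.05), and 8.87% changed in XY supporting cells from 11.5 to 13.5 dpc. The medians of XY minus XX over all genes were -0.06, 0.04 and -0.02 on the successive days.

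Of the 23 prostaglandin genes measured of 24, 0 differed at 11.5 dpc, 3 were higher and 2 lower in XY at 12.5 dpc, and 4 were higher and 1 lower at 13.5 dpc. With the row sets aligned the splits of higher and lower genes were 1 and 2, 4 and 3, and 4 and 2. The list medians on the 3 days were -0.03, 0.01 and -0.08. Hpgd, which inactivates prostaglandins, was higher at 13.5 dpc by 1.36 (SE 0.26, limma adjusted p = 7.31e-05). Ptger1, a prostaglandin E receptor, was higher by 1.23 (SE 0.23), and Ptgr1, a prostaglandin reductase, by 1.02 (SE 0.21). Ptger3, another prostaglandin E receptor, was lower with a difference of -0.95 (SE 0.20, adjusted p = 0.000397). Genes on either side of Ptgds did not pass: Ptgs2, which makes its substrate as does Ptgs1 (not analysed here), differed by -0.10 (SE 0.23), Hpgds, the other prostaglandin D synthase, by 0.01 (SE 0.23), and the prostaglandin D receptors Ptgdr and Ptgdr2 by -0.18 (SE 0.19) and -0.24 (SE 0.19).

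Igf1 was lower in XY supporting cells at all 3 stages and Igf2 at 12.5 and 13.5 dpc, while the IGF binding proteins differed in both directions. Of 23 genes, 3 were lower at 11.5 dpc, 3 higher and 5 lower at 12.5 dpc, and 6 higher and 4 lower at 13.5 dpc, with list medians of -0.15, -0.10 and -0.15. With the row sets aligned 1 gene was higher and 3 lower at 11.5 dpc. Igf2, the main fetal IGF, lay between 8.03 and 8.12 in XY and between 11.23 and 11.40 in XX supporting arrays at 13.5 dpc, a difference of -3.24 (SE 0.24, limma adjusted p = 8.23e-16). Igf1 differed by -2.11 (SE 0.21) at 13.5 dpc and was lower already at 11.5 dpc, with -1.19 (SE 0.21, adjusted p = 8.12e-05). At 11.5 dpc Igf2 differed by -0.67 (SE 0.24, adjusted p = 0.15). The binding proteins Igfbp7 and Igfbp3 were higher at 13.5 dpc by 2.61 (SE 0.30) and 1.75 (SE 0.30). Igfbp4 and Igfbp5, named after their values were seen, were lower on that day, with -1.65 (SE 0.22, limma adjusted p = 5.15e-08) and -1.63 (SE 0.25, adjusted p = 1.63e-06). At 12.5 dpc Igfbp7 was higher by 1.52 (SE 0.30), whereas Igfbp2, Igfbp4 and Igfbp5 were lower, with -0.70, -1.77 and -3.10, and Igfbp3 differed by -0.65 (adjusted p = 0.182). Igfbp5 was lower already at 11.5 dpc, with -1.06 (SE 0.25, adjusted p = 0.00612). At 13.5 dpc Igf1r, the receptor of both ligands, was higher by 0.62 (SE 0.20, limma adjusted p = 0.0325). In XY supporting cells 5 genes of the list rose and 4 fell from 11.5 to 13.5 dpc, and in XX supporting cells 0 rose and 2 fell.

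Among 19 calcineurin genes measured of 21, 1 was higher and 1 lower at 11.5 dpc, 3 higher and 1 lower at 12.5 dpc, and 2 higher and 3 lower at 13.5 dpc, with list medians of -0.13, 0.03 and -0.10. The split depended on the scaling: with the row sets aligned 1 was higher and 2 lower, 7 higher and 2 lower, and 6 higher and 3 lower, and with quantile normalisation 1 higher and 2 lower at 11.5 dpc. Chp2, like Tesc a calcineurin B homologue, was higher at 13.5 dpc by 2.88 (SE 0.22, limma adjusted p = 3.83e-15) and not at 11.5 dpc, with 0.21 (SE 0.22). Rcan1, a regulator that binds calcineurin, was higher by 1.30 (SE 0.22, adjusted p = 4.31e-05) at 11.5 dpc and by 1.64 (SE 0.22) at 13.5 dpc. The transcription factors Nfat5 and Nfatc4 were lower at 13.5 dpc with differences of -1.03 (SE 0.19) and -0.65 (SE 0.22, adjusted p = 0.0439). Ppp3r1, the calcineurin B subunit itself, differed by -0.20 (SE 0.26) and did not pass.

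Of the 34 PGC-1 pathway genes 31 were measured, and 3, 5 and 5 of them passed the test on the deposited scale at 11.5, 12.5 and then 13.5 dpc. In XY supporting cells 1 was higher and 2 lower at 11.5 dpc, 1 higher and 4 lower at 12.5 dpc, and 2 higher and 3 lower at 13.5 dpc, with list medians of -0.12, 0.09 and 0.08. With the row sets aligned 2 were higher and 2 lower, 7 higher and 5 lower, and 8 higher and 4 lower, and with arrays centred 4 higher and 3 lower at 13.5 dpc. Cycs, which encodes cytochrome c, was higher by 0.95 (SE 0.22, limma adjusted p = 0.00542) at 11.5 dpc and by 1.53 (SE 0.22) at 13.5 dpc. Pdk4, a kinase that restrains pyruvate entry into mitochondria, was lower on both days, with -1.28 (SE 0.31, adjusted p = 0.0077) and -2.31 (SE 0.31). Ppara, a nuclear receptor partner of PGC-1alpha, was lower by a difference of -0.88 (SE 0.20) at 13.5 dpc. Of the other coactivators of the family, Pprc1 was higher at 13.5 dpc by 0.90 (SE 0.22, adjusted p = 0.00191) and Ppargc1b differed by 0.08 (SE 0.20). Esrra, a receptor that PGC-1alpha activates, differed by 0.33 (SE 0.20) and did not pass, although with the row sets aligned its difference of 0.29 had a limma adjusted p of 0.00545.

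**Figure D5:**
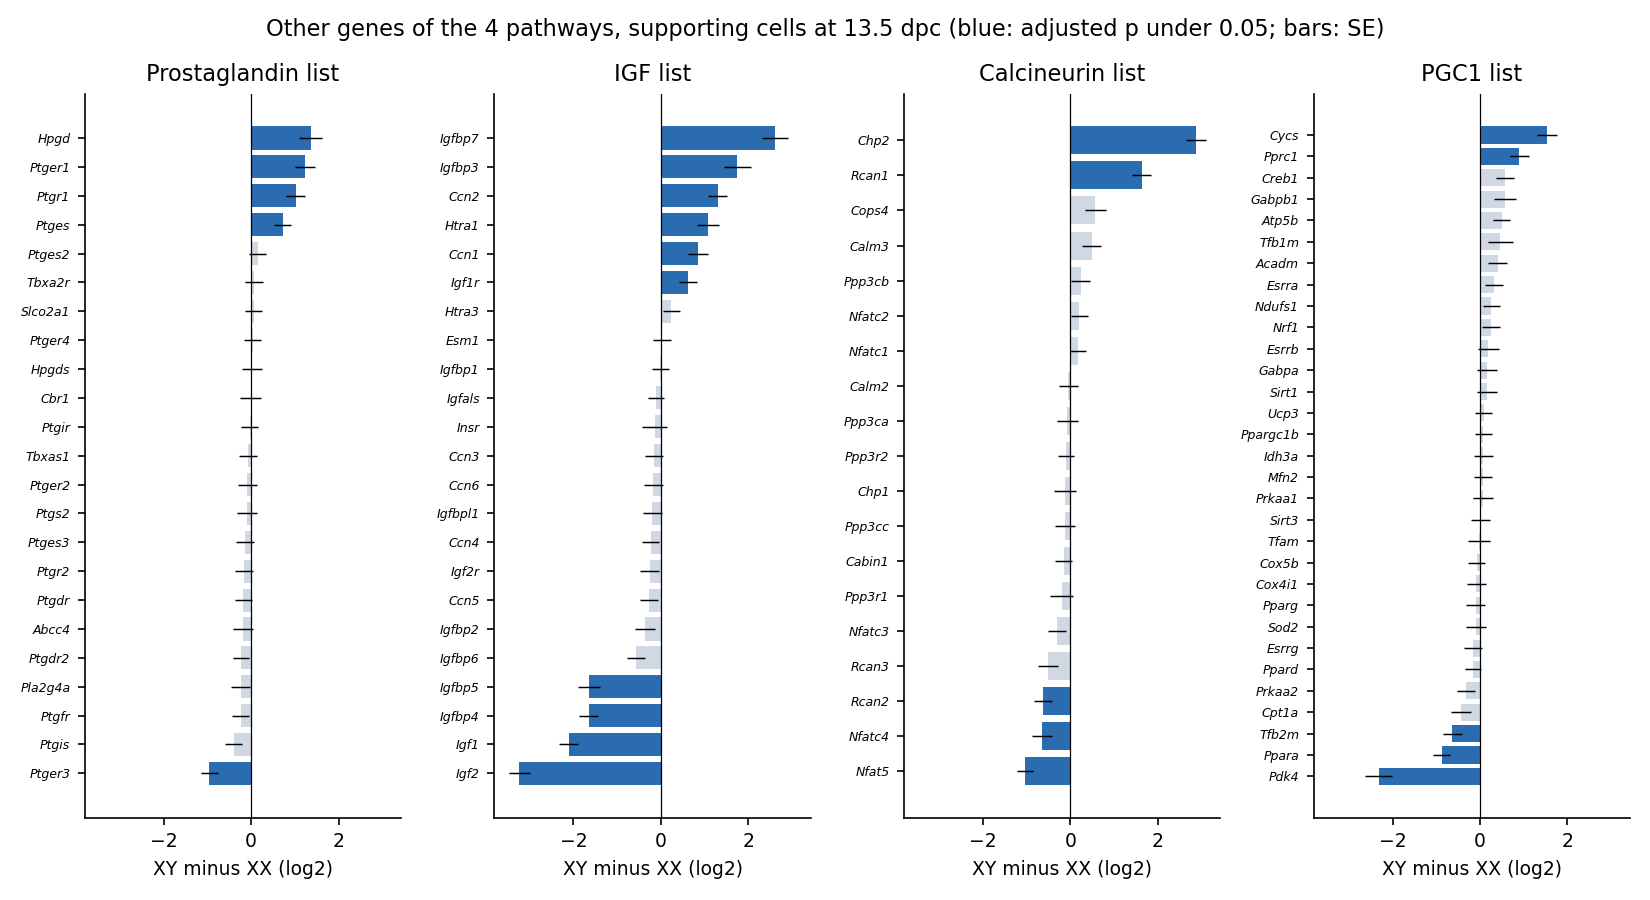
XY minus XX difference in supporting cells at 13.5 dpc (log2, horizontal axes) of each measured gene of the prostaglandin, IGF, calcineurin and PGC-1 lists, with standard errors as bars and limma adjusted p under 0.05 in blue. Igf2 (-3.24) and Chp2 (2.88) reach farthest, and 5, 10, 5 and 5 genes of the 4 lists passed.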

How the data were processed

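The 4 genes, the gene lists and the comparisons were chosen with earlier results of these data known. The deposited values are log2 expression made by the authors with RMA on Affymetrix Mouse Gene 1.0 ST arrays, per the submitters' processing notes, which name no version. The table held 35557 probe sets on 36 arrays, with array medians from 6.54 to 7.01 and correlations within groups from 0.967 to 0.995 in the 35 arrays used. The number of arrays limits the precision. In each array the probe sets fell into interleaved row sets (107 in all) on separate linear scales, whose medians lay 0.02 to 0.75 apart (median 0.30) on the log2 scale, for a reason no source names. Deposited values were kept, and an alternative moved each set to 1 slope and median (row sets aligned).

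Of 23410 probe sets listed in a platform annotation, 21789 had 1 symbol and 1621 several, and 12147 were unnamed here; 21698 matched the gene table (GRCm38.p6). Probe sets with 1 symbol gave 19938 genes, the highest mean standing for the 999 genes with several. Dim genes were kept.

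The test was limma 3.58.1 (R 4.3.3): 35 arrays, 12 group means, 23 residual degrees of freedom, empirical Bayes moderation, two-sided p-values adjusted by Benjamini-Hochberg over all genes of a comparison, threshold 0.05. SE is that of the fitted contrast. The model was tested on simulated data. Alternatives were the array returned, centring, quantile normalisation, aligned row sets, a filter on dim genes, only the arrays compared, array weights, a replicate block, the mean of probe sets and each replicate left out; the other Ppargc1a probe set was added after the data were seen. Named genes were the members, the 3 genes most like each over group means, and up to 4 genes of each list with the largest differences at 13.5 dpc among those past the threshold, besides genes whose role was needed and markers of cell types. Other steps ran in Python 3.11.15 (pandas 2.3.3, numpy 2.4.6), and plots in matplotlib 3.10.9.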

Additional observations from a re-analysis of the deposited data

Results flagged for a closer look

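The change of Kazald1 from 11.5 to 13.5 dpc differed between XX supporting and XX germ cells by 1.81 on the log2 scale (SE 0.30, limma adjusted p = 2.57e-05), a test of the difference itself. All 3 XX supporting arrays at 13.5 dpc lay above all 3 at 11.5 dpc. The groups differ in reporter line as well as in cell type, and what sets them apart was not tested.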

How the results depend on the processing

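Of 1030 reruns of 65 results (40 tests of the members, 4 of a contrast added later, 16 described differences and 5 counts of pathway genes), 979 kept their direction and side of the threshold, or for described differences stayed within 1 SD and for counts within 1.5 times. In 55 of 711 reruns of the members' tests the sign changed with no call before or after. Causes of the changes below were not tested. Kazald1 in XX supporting cells over time kept its call throughout.

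With the row sets aligned, Ppargc1a in XX germ minus supporting cells at 12.5 dpc turned from 0.06 to -0.48 (limma adjusted p = 0.00662), Kazald1 there reached -0.84, Ptgds at 11.5 dpc -0.35, Ppargc1a in XX supporting cells over time 0.41, and its change against XX germ cells 0.64, all now past the threshold. With array weights, values newly past it were 0.83 for Ppargc1a in the change of XX supporting against XX germ cells, -0.57 in XX germ cells over time and 0.63 between karyotypes in germ cells at 13.5 dpc, 1.10 for Kazald1 in the change of the germ cell karyotype difference and -0.38 for Ptgds in XX germ minus supporting cells at 11.5 dpc. Centring moved past it Ptgds in XX germ cells over time (0.50), the Kazald1 change of karyotype difference (0.90) and Kazald1 in XX germ minus supporting cells at 12.5 dpc (-0.62; -0.65 with quantile normalisation). With only the arrays compared, Kazald1 in XY germ cells over time (0.72) was lost and Ptgds at 11.5 dpc (-0.39) gained. Ppargc1a in XX germ minus supporting cells at 13.5 dpc was lost with the left-out array returned (-0.64), on the mean of probe sets (-0.48) and on the other probe set (-0.32). On the mean of probe sets its XY minus XX differences in supporting cells were 2.91, 2.49 and 1.31 at the successive stages, and on the other probe set 1.91, 1.91 and 0.43.

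Leaving out 1 array gave ranges of 0.47 to 0.98 for Kazald1 in XY germ cells over time, 0.53 to 1.05 between karyotypes in germ cells at 13.5 dpc, and 0.65 to 1.17 for the change of that difference, which passed without XX array 1 (1.04) or XY array 1 (1.17) of 13.5 dpc. It gave -0.88 to -0.50 for Ppargc1a in XX germ minus supporting cells at 13.5 dpc, and for Ptgds 2.03 to 2.49 in XY supporting cells over time and 1.06 to 1.53 for XY minus XX at 11.5 dpc, where 2.49 and 1.06 were reached without XY array 3 of 11.5 dpc.

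Counts of pathway genes past the test were 8, 22 and 25 for XY minus XX at the 3 stages, 7 in XX and 19 in XY supporting cells over time. With the row sets aligned they were 14, 38, 39, 18 and 30, with array weights 19 at 11.5 and 38 at 13.5 dpc, 17 in XX and 34 in XY over time, and with the array returned 4 at 11.5 dpc and 4 in XX over time. Over all genes the counts depended on the setting. For XY minus XX supporting cells they were 663 (392 to 2200 over the alternatives), 2666 (2057 to 5533) and 2437 (1886 to 6079) at the 3 stages, and over time 817 (560 to 2762) in XX and 1768 (1139 to 4804) in XY. In germ cells they were 5 (5 to 20), 358 (91 to 775) and 1837 (1194 to 6230) between karyotypes, 3050 (2088 to 5069) in XX and 1416 (924 to 2807) in XY over time, and 644 (281 to 1599) for the change of the karyotype difference. For XX germ minus supporting cells they were 5298 (4616 to 7685), 4908 (3361 to 6741) and 5267 (4613 to 7543), and 1761 (1115 to 3528) for the contrast added later. Over 187 pairs of same-numbered arrays the median correlation of deviations was -0.01 (range -0.52 to 0.54). These pairs were taken across all lines and stages together, so pairing of arrays within a line and stage was not tested. With a replicate block the rise of Kazald1 in XX supporting cells was 1.62, and none of the 65 results changed.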
